A study of Mus musculus with 12 samples.

Results

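The classic cadherins of the embryonic mouse diencephalon were followed on Illumina bead arrays through 10 genes: Cdh2, Cdh4, Cdh6, Cdh7, Cdh8, Cdh9, Cdh10, Cdh11, Cdh13 and Cdh20. The members were taken as every probe listed under one of these symbols in the table that joins both chips or in the table of chip 2. That gave 25 probes, 18 of them among the 31448 probes measured on both chips and 7 among those measured on chip 2 alone, which carries 45281 probes in all. A further 3 probes stood under older names that a RefSeq gene table pairs with members, 1 of Cdh4 (listed as AW120700) and 2 of Cdh10 (listed as A830016G23Rik). They are shown beside the others. 2 of the Cdh2 probes carry a provisional name in the joined table and Cdh2 in that of chip 2.

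The arrays came from CD1 mouse embryos at E12.5 and compared thalamus of wild-type (WT) with that of Gbx2 knockout (KO) animals. The homeobox gene Gbx2 codes for a transcription factor expressed in the developing thalamus. Chip 1 held WT and KO thalamus replicates 1 and 2 with 1 array each of WT epithalamus and WT prethalamus, and chip 2 held replicates 3, 4 and 5 of WT and KO thalamus. Replicate 5 of both genotypes carries the remark of an excluded outlier, which leaves 4 WT and 4 KO arrays. The tissue field names thalamus on all 12 arrays, and the 2 other regions were placed by the sample descriptions. The labels give no detail of the knockout allele, nor whether an array holds 1 embryo or a pool, so p-values take in the spread between arrays only. In bulk tissue, fewer cells of a type and less RNA per cell cannot be told apart. The share of probes detected ran from 30.7% to 36% over the arrays of chip 1 and from 44.8% to 46.4% over those of chip 2. Levels are normalized log2 intensities (a step of 1 is a doubling), each chip was normalized separately, and levels are compared within a chip. Gbx2 itself fell by 1.27 in KO (SE 0.27, limma adjusted p = 0.0408), and stood between 12.77 and 14.05 on the 4 KO arrays; whether its probe lies in the deleted part is not given in the labels.

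Classic cadherins are transmembrane proteins that join neighbouring cells through calcium-dependent binding of their extracellular repeats, and their cytoplasmic tails bind beta- and delta-type catenins; through alpha-catenins these link them to actin. Cdh2 (N-cadherin) and Cdh4 (R-cadherin) are type I members, and Cdh6 to Cdh11 and Cdh20 are type II members. Cdh13 (T-cadherin) has the extracellular repeats but is held by a lipid anchor and has no cytoplasmic tail. In the embryonic brain, type I and type II cadherins are known for distinct regional patterns that follow the borders of progenitor domains and later of nuclei, and a cell's cadherins are known to influence which neighbours it adheres to.

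The array reads each gene through short probes, and the probe decides what can be said of Cdh4 in particular, so the first 30 bases of the 50-base probes on which the results turn are shown here 5′ to 3′, decoded from the deposited probe codes. The pair for Cdh4 is given because its members led to different calls, the pair for Cdh8 because both gave a similar value, and Cdh6 and Cdh10 because a single probe stands for each.
Cdh4 probe listed as AW120700: gttttcaatgtgtttttagtgccaggcagt
Cdh4 probe listed as Cdh4: gggtggatgaacggccagtaggtgctgaac
Cdh6: cattgtgcctgaagctctttttctaccccg
Cdh8, first probe: ccgctttaagagactgggcgaactctactc
Cdh8, second probe: gtctggccttgtttcttccttgtgtgtatg
Cdh10: gaaccctgcagctatcgaggagaaaaagct
Over their whole length the Cdh4 probes differ in base composition, with 46.0% G and C in the one listed as AW120700 and 62.0% in the one listed as Cdh4. Among all 190 pairs of the 20 cadherin probes on both chips, the longest run of bases that any pair shares was 8, so no pair overlaps by more than that.

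Of the 10 genes, 7 passed the filter of detection (detection p under 0.05) on at least 4 of the 8 thalamus arrays and were tested: Cdh2, Cdh4, Cdh6, Cdh7, Cdh8, Cdh10 and Cdh13. The probe of Cdh9 and both probes of Cdh20 were detected on none of the 12 arrays. Cdh11, a type II cadherin known from mesenchyme and choroid plexus as well as neural tissue, had 2 probes detected on 2 thalamus arrays each, WT replicate 3 and KO replicate 3 in both cases, and a probe detected on none. On the 4 arrays of chip 2 the first of these Cdh11 probes read 6.35 and 5.23 in WT and 6.02 and 5.85 in KO, so the genotypes overlapped. In the gene table, Cdh6, Cdh9 and Cdh10 follow each other with no other protein-coding gene between them, as do Cdh8 and Cdh11. Members next to each other on a chromosome thus include genes that were measured here and genes that were not.

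Across all 10395 genes tested, 298 (2.87%) passed the test of KO against WT thalamus (limma with the chip as a block, Benjamini-Hochberg adjusted p under 0.05). Among the 7 cadherins tested, Cdh4 fell and Cdh6 rose. Higher calls made up 1.39% of all genes and lower calls 1.48%. Counted by array, Cdh4, Cdh6 and Cdh8 had KO and WT values that did not overlap on either chip, which held for 20% of all genes (10.3% higher and 9.75% lower in KO).

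Among replicates 1 to 4, Cdh4, the type I R-cadherin, was lower in every KO array than in every WT array of the same chip. The excluded replicate 5 arrays lay the other way, as given below. The probe listed as AW120700 read 9.60 and 10.34 in WT and 8.78 and 8.62 in KO on chip 1. On chip 2 it read 11.28 and 12.06 in WT and 10.33 and 10.96 in KO. The KO arrays lay below the WT arrays on both chips, with the narrowest gap, on chip 2, between KO replicate 4 and WT replicate 3. KO minus WT was -1.15 (SE 0.25, 95% interval -1.70 to -0.60, n = 4 and 4), a level 2.22-fold lower in KO, with a limma adjusted p of 0.0413. The difference was -1.27 within chip 1 and -1.03 within chip 2.

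The probe that carries the name Cdh4 moved the same way but did not pass. It read 5.68 and 6.06 in WT and 4.92 and 5.44 in KO on chip 1, where both KO arrays were not well above background. On chip 2 it read 7.56 and 8.76 in WT and 6.44 and 7.29 in KO. Among replicates 1 to 4, again no KO value reached a WT value of its chip. In the fit of every joined probe, where 2.67% of 13215 probes passed, it stood at -0.99 (SE 0.31, limma adjusted p = 0.119), while the probe listed as AW120700 stood at -1.15 (SE 0.25, limma adjusted p = 0.0437). On chip 1 the mean of its WT arrays was at least 1.31-fold higher than the KO arrays, a bound set by the lowest detected signal of each KO array or the probe's own, whichever was higher. The Cdh4 call therefore rests on the probe under the older name. That probe is assigned to Cdh4 by a synonym in the gene table alone, and its place and strand relative to Cdh4 transcripts were not checked, since no genome was used here. Averaging both probes gave -1.07 with a limma adjusted p of 0.0612.

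**Figure D1:**
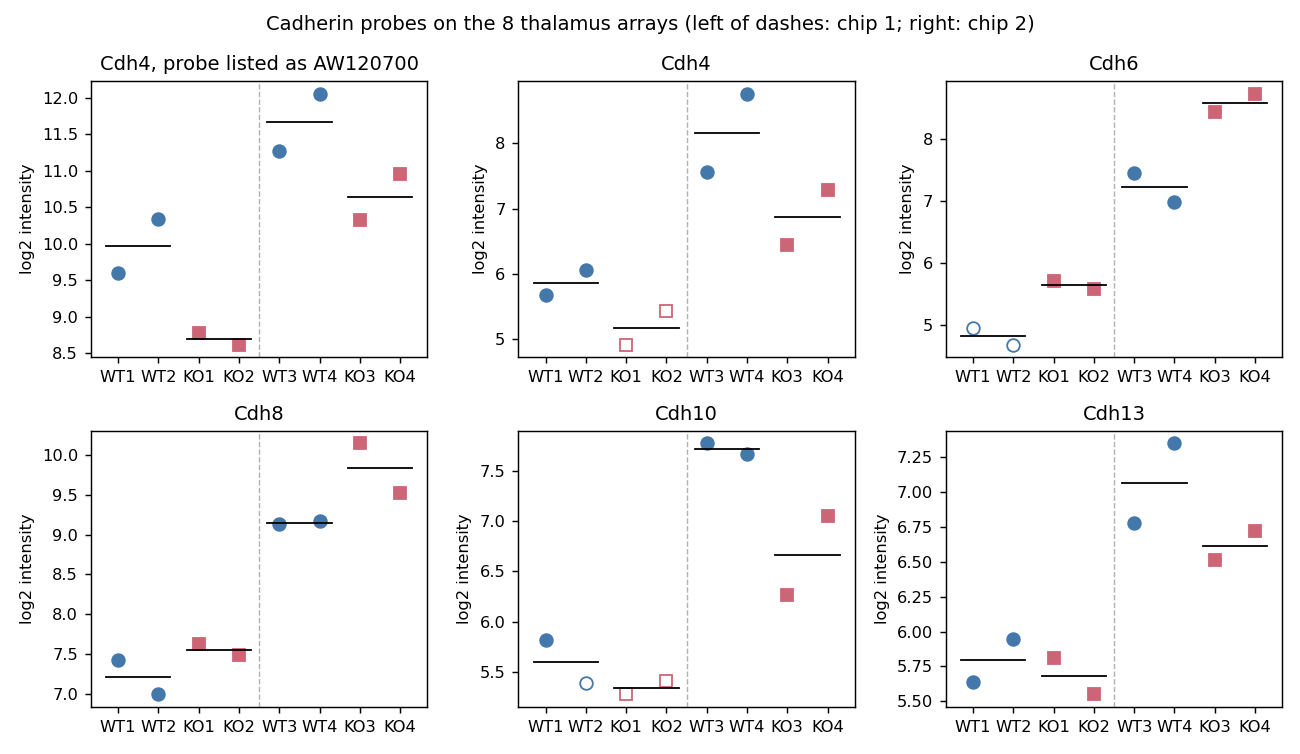
Normalized log2 intensity of 6 cadherin probes (1 per panel, each with its own vertical axis, not starting at 0) on the 8 thalamus arrays, WT as blue circles and KO as red squares, with chip 1 left of the dashed line and chip 2 right of it. Open symbols were not well above background and bars are the means of 2 arrays; in the Cdh4 panels every KO point lies below the WT points of its chip, and in the Cdh6 and Cdh8 panels every KO point lies above them.

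Cdh6, a type II cadherin, was higher in every KO array than in every WT array of the same chip. On chip 1 both KO arrays had signal above background, at 5.71 and 5.58, while the WT arrays, at 4.96 and 4.69, were not well above background. On chip 2 WT read 7.45 and 6.99 and KO read 8.44 and 8.73. The KO values lay above the WT values on both chips. KO minus WT was 1.09 (SE 0.19, 95% interval 0.67 to 1.52, n = 4 and 4), a level 2.13-fold higher in KO, with a limma adjusted p of 0.0229. The difference was 1.37 within chip 2, where all 4 arrays measured the probe, and 0.82 within chip 1. Since WT was detected on 2 of its 4 arrays, the chip 1 part has only a bound, with KO at least 1.11-fold higher.

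Both calls were near the threshold, and most arrays were needed for them. With each of the 8 arrays left out in turn, Cdh4 stayed between -1.33 and -0.98, with limma adjusted p between 0.0298 and 0.139. It passed without WT replicate 1 or WT replicate 3 and did not pass without any one of WT replicates 2 and 4 and KO replicates 1 to 4. Cdh6 stayed between 0.95 and 1.20, with limma adjusted p between 0.0129 and 0.0674. It passed without WT replicate 1 and did not pass without any one of the other 7 arrays.

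Cdh8, another type II cadherin, stood higher in KO on each of the 4 probes that were detected on all thalamus arrays carrying them, but did not pass. Its brightest joined probe read 7.42 and 6.99 in WT and 7.62 and 7.48 in KO on chip 1, and 9.13 and 9.17 in WT and 10.15 and 9.53 in KO on chip 2. The genotypes did not overlap, with KO replicate 2 just above WT replicate 1 on chip 1. KO minus WT was 0.52 (SE 0.19, 95% interval 0.09 to 0.94, limma adjusted p = 0.166). The second joined probe stood at 0.58 (SE 0.20, limma adjusted p = 0.154), with WT values of 6.49, 6.87, 8.02 and 7.88 and KO values of 7.12, 7.10, 9.08 and 8.28 for replicates 1 to 4. Chip 2 carries further Cdh8 probes, of which 2 were detected on all 4 arrays. They stood at 0.89 (SE 0.31, limma adjusted p = 0.2) and 1.03 (SE 0.37, limma adjusted p = 0.214) in the fit of chip 2 alone, where 0.524% of 21369 probes passed. These probes read the same RNA on the same arrays and are not replicates of the difference. In that fit none of the 18 cadherin probes tested passed, with 7 at an unadjusted limma p under 0.05, which 18.1% of all chip 2 probes met; the 7 hold 2 probes each of Cdh4 and Cdh8.

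Cdh10, a type II cadherin, was lower in KO on chip 2 and hardly separated from background on chip 1. WT read 5.82 and 5.39 and KO 5.28 and 5.41 on chip 1, where WT replicate 1 alone was detected. On chip 2 WT read 7.77 and 7.66 and KO read 6.27 and 7.05. The genotypes overlapped on chip 1 and not on chip 2. KO minus WT was -0.66 (SE 0.23, 95% interval -1.18 to -0.13, limma adjusted p = 0.157), and the chip 2 difference of -1.05 did not pass either (limma adjusted p = 0.185). Of the Cdh10 probes under the older name, 1 was detected on no array and 1 on WT replicate 3 alone.

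Cdh7, the type II member listed with a second probe that was detected on no array of chip 2, read 6.55 and 6.38 in WT and 7.65 and 6.51 in KO on chip 2, and was not well above background on the 4 thalamus arrays of chip 1. KO replicate 3 stood apart from the other 3 arrays of chip 2. The difference was 0.35 (SE 0.25, 95% interval -0.20 to 0.90, limma adjusted p = 0.448), and 0.07 without KO replicate 3.

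Cdh2, the N-cadherin of neural progenitors and their apical junctions, gave no difference that passed on any of its 5 probes. Its brightest joined probe read 7.23, 6.21, 9.77 and 9.44 in WT replicates 1 to 4 and 7.10, 6.87, 10 and 9.31 in KO replicates 1 to 4. The genotypes overlapped on both chips. KO minus WT was 0.16 (SE 0.25, 95% interval -0.40 to 0.72, limma adjusted p = 0.76), an interval that still holds changes of either sign. On chip 2 alone the 5 probes ranged from 0.05 to 0.91.

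Cdh13, the member without a cytoplasmic tail, read 5.64, 5.95, 6.78 and 7.35 in WT and 5.81, 5.55, 6.51 and 6.72 in KO on its brightest probe. The genotypes overlapped on chip 1, and on chip 2 both KO arrays lay below both WT arrays. The difference was -0.29 (SE 0.19, 95% interval -0.70 to 0.13, limma adjusted p = 0.415). Without WT replicate 4 it was -0.14. A second probe, not well above background on the thalamus arrays of chip 1, stood at -0.62 on chip 2 alone (SE 0.29, limma adjusted p = 0.317).

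**Figure D2:**
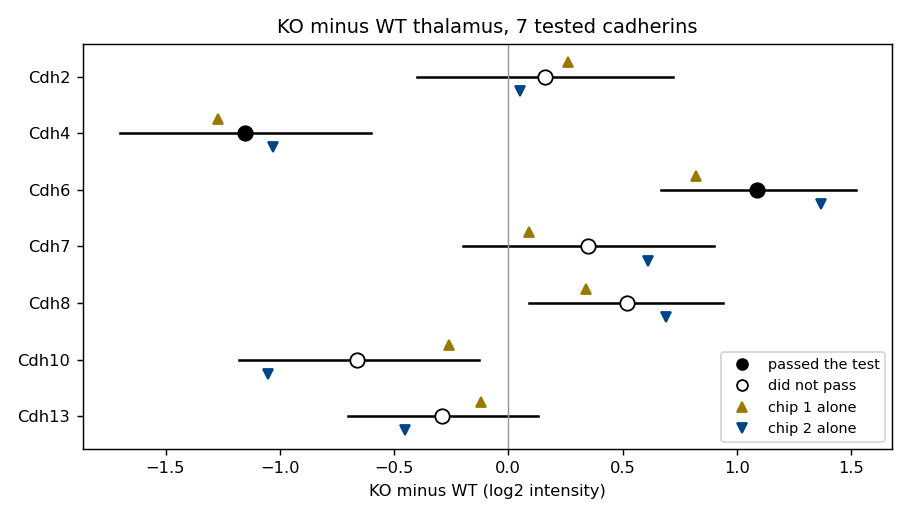
KO minus WT thalamus in log2 intensity (horizontal axis) for the 7 tested cadherins, as circles with 95% intervals from the limma fit over 4 WT and 4 KO arrays; filled circles passed the test. Triangles give the difference within chip 1 (pointing up) and chip 2 (pointing down). On chip 1 Cdh7 was detected on 0 and Cdh10 on 1 of the 4 thalamus arrays, so those triangles compare values at background. Cdh6 was detected on chip 1 in KO thalamus alone, so its chip 1 triangle has only a bound, KO at least 1.11-fold higher.

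The test of the difference between chips called 0 of the 10395 genes in limma, against 605 (5.82%) at an unadjusted p under 0.05, and none of the 7 cadherins was among those 605. Its smallest p among the cadherins belonged to Cdh10, with -0.26 on chip 1 and -1.05 on chip 2 (unadjusted p = 0.0875, limma adjusted p = 0.86).

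Epithalamus and prethalamus had 1 array each and therefore no test, and 1 of the 10 members, Cdh8, stood 1 or more apart from both WT thalamus arrays of chip 1. Cdh6, Cdh9, Cdh11 and Cdh20 were detected on none of these arrays and could not be counted, nor could Cdh7 in the epithalamus. The shares of all genes likewise leave out genes detected on none of the arrays compared. In the prethalamus its brightest probe read 8.73, higher by 1.30 and 1.74 than the WT thalamus arrays, and its second probe read 7.89, higher by 1.41 and 1.02. Over all genes measured there, 1.08% were higher by that margin in the prethalamus and 0.872% lower. In the epithalamus Cdh8 read 7.39, level with WT thalamus replicate 1, and no cadherin met the margin, against 0.868% of all genes higher and 0.635% lower. On the 2 KO thalamus arrays of chip 1, at 7.62 and 7.48, Cdh8 lay below the prethalamus value.

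Cdh4 differed little among the WT regions. The probe listed as AW120700 read 10.04 in the epithalamus and 10.28 in the prethalamus, both between the WT thalamus arrays at 9.60 and 10.34. The KO thalamus arrays, at 8.78 and 8.62, lay below all 4 WT arrays of the chip. The probe listed as Cdh4 read 5.53 in the epithalamus, below WT thalamus at 5.68 and 6.06, and 6.11 in the prethalamus, above both, by 0.53 or less in each case. Cdh6 was not well above background in WT thalamus, epithalamus (4.96) or prethalamus (5.31) on chip 1, where the KO thalamus arrays were the ones that measured it. Cdh7 was detected on chip 1 in the prethalamus alone, at 5.53. The brightest Cdh2 probe read 7.52 in the epithalamus and 7.86 in the prethalamus, above WT thalamus at 7.23 and 6.21, but by less than 1 against the higher of these. The other Cdh2 probe detected on all 6 arrays read 6.21 in the epithalamus, between WT thalamus at 6.11 and 6.65, and 6.85 in the prethalamus, above both. Cdh13 read 6.21 in the epithalamus, above WT thalamus at 5.64 and 5.95, and 5.73 in the prethalamus, between them.

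**Figure D3:**
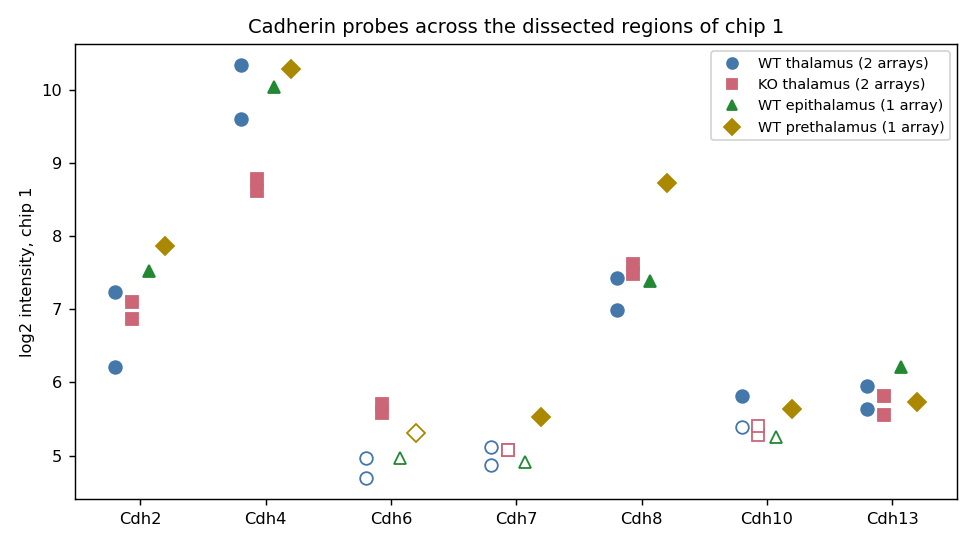
Normalized log2 intensity on the 6 arrays of chip 1 (vertical axis, not starting at 0) for the probe that stands for each tested cadherin: WT thalamus (blue circles), KO thalamus (red squares), WT epithalamus (green triangle) and WT prethalamus (yellow diamond). Open symbols were not well above background, and levels of different genes are not comparable; the prethalamus diamond of Cdh8, at 8.73, stands above its other points, and the KO squares of Cdh4 stand below its other points.

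Cell cycle genes were also uneven among the thalamus arrays. On both chips the KO arrays of replicates 1 to 4 had a higher mean of these genes, lower Cdh4 and higher Cdh6 than the WT arrays. Of the 8 cell cycle genes tested of 10 listed, 4 were higher in KO (Birc5, Tyms, Top2a and Mcm5) and all 8 had a positive difference, with a median of 1.11 against -0.02 for all genes. The summed signal of the 8 genes, given on the linear scale, ran from 3179 to 6020 in WT and from 7964 to 8171 in KO on chip 1, and from 17793 to 20189 in WT and from 34158 to 60712 in KO on chip 2. As a mean difference from the WT arrays of the chip, the list stood at 0.45 and -0.45 in WT and 0.90 and 0.85 in KO on chip 1, and at -0.04 and 0.04 in WT and 1.62 and 0.91 in KO on chip 2. Their part in the differences of Cdh4, Cdh6 and Cdh10 was not tested.

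The excluded arrays differed in which genes lay with their label. WT replicate 5 had a cell cycle mean 1.66 above the WT arrays of chip 2, near KO replicate 3, and KO replicate 5 one of 0.18, near the WT arrays. Gbx2, in contrast, stood at 15.18 in WT replicate 5 and at 13.69 in KO replicate 5, on the side of its label in each.

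On the excluded arrays, a single array per genotype, Cdh4 lay with the cell cycle level and not with the label. With all 6 arrays of chip 2 normalized together, the probe listed as AW120700 stood at -1.32 from the WT mean in WT replicate 5 and at 0.53 in KO replicate 5, and the probe listed as Cdh4 stood at -1.98 and 0.44. In levels, WT replicate 5 read 10.32, beside 10.30 in KO replicate 3, and KO replicate 5 read 12.17, above WT replicates 3 and 4 at 11.25 and 12.04. Cdh10 was likewise low in WT replicate 5 (-1.51) and near WT in KO replicate 5 (-0.19). Cdh13, on its brightest probe, read 6.18 in WT replicate 5, below KO replicates 3 and 4, and 7.78 in KO replicate 5, above WT replicates 3 and 4. Cdh7 read 7.45 in WT replicate 5, near KO replicate 3 at 7.63. In KO replicate 5 it read 5.63, not well above background. The brightest probes of Cdh8 (9.46 in WT and 9.67 in KO) and Cdh2 (9.16 and 9.34) differed less between these arrays. With both excluded arrays included, Cdh4 stood at -0.55 (limma adjusted p = 0.775) and Cdh10 at -0.26 (limma adjusted p = 0.847).

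On the same arrays Cdh6 lay with the label. It stood at 1.73 in KO replicate 5, whose cell cycle mean was 0.18, and at 0.39 in WT replicate 5, whose cell cycle mean was 1.66. In the same normalization, KO replicates 3 to 5 read 8.42, 8.71 and 8.93 and WT replicates 3 to 5 read 7.43, 6.97 and 7.59. The genotypes did not overlap. With replicate 5 of each genotype included, KO minus WT of Cdh6 was 1.14 (SE 0.18, limma adjusted p = 0.0452, n = 5 and 5), while the number of all genes that passed went from 298 to 15.

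**Figure D4:**
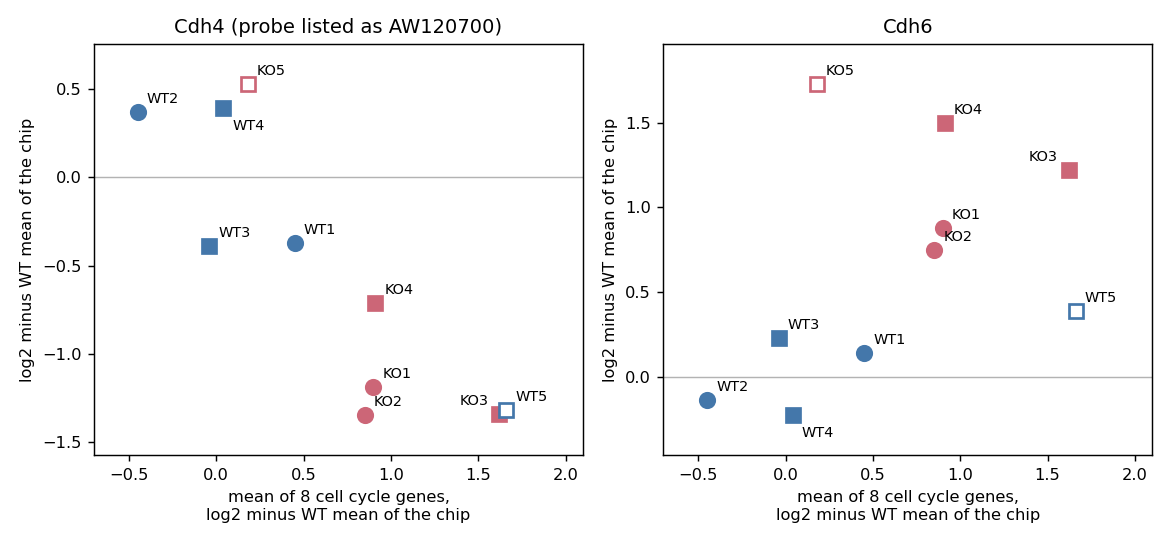
Level of Cdh4 (left) and Cdh6 (right) against the mean of 8 cell cycle genes on 10 thalamus arrays, both in log2 minus the mean of the WT replicates 1 to 4 on the same chip; WT in blue, KO in red, chip 1 as circles, chip 2 as squares, and the excluded replicate 5 arrays open. In the Cdh4 panel WT5 lies beside KO3 and KO5 beside WT4, and in the Cdh6 panel all KO points, from 0.75 to 1.73, lie above all WT points, of which WT5 at 0.39 is the highest.

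Markers of other tissues were read on the same arrays. Of 8 habenula genes, 5 were tested, 4 had a positive difference and 1, Cntn2, passed (1.51, SE 0.32, limma adjusted p = 0.0413), with a list median of 0.77. Their summed linear signal was 2276 to 2946 in WT and 3534 to 4289 in KO on chip 1. On chip 2 it was 8014 to 9947 in WT and 12620 to 16142 in KO, so it was higher on the arrays where Cdh6 was higher. The genes did not move alike. On chip 2 Cntn2 read 10.83 and 10.64 in WT and 13.15 and 12.90 in KO. Gng8 read 12.86 and 12.42 in WT and 11.35 and 12.83 in KO, and Etv1 stood at -0.31 over both chips. The mean log2 shift of the list on chip 1 was 0.24 and -0.24 in WT and 0.27 and 0.64 in KO. In the WT epithalamus array, the dissected region that holds the habenula, the sum was 3488, above WT and below KO thalamus of chip 1. The mean log2 shift from WT thalamus was 0.02, with genes going opposite ways. Cntn2 (11.19), Irx1 (6.10) and Nr4a2 (9.66) were higher there than on both WT thalamus arrays of chip 1. Gng8 (7.42, against 9.77 and 10.04) and Etv1 (6.65) were lower than on both. The mean of the list thus did not set that region apart on these arrays. The defining habenula gene Pou4f1 did not pass the detection filter. Of 9 prethalamus genes, 3 were tested and none passed. Their summed signal on chip 1 was 8789 in the prethalamus array and 2171 in the epithalamus array. In thalamus of that chip it was 126 to 880 in WT and 139 to 194 in KO. On chip 2 that sum was 1352 to 1425 in WT and 273 to 903 in KO. Of 8 genes of the caudal thalamus, 7 were tested and 3 fell (Ntng1, Rora and Gbx2). Of 7 mesenchyme genes Twist1 alone was tested and did not pass, and its linear signal was 31 to 50 in WT and 40 to 68 in KO on chip 1, and 271 to 275 and 216 to 290 on chip 2. Of 6 pretectum genes, 3 were tested and none passed. Their summed linear signal was also higher in KO without overlap, at 2976 to 3447 in WT and 3553 to 3843 in KO on chip 1. On chip 2 it was 5393 to 9439 in WT and 15464 to 16358 in KO. That sum was led by the brightest gene, Ebf3 (KO minus WT 0.84), while Ebf1 stood at 0.09 and Tfap2d at -1.42. The mean log2 shift of the list in KO was -0.73 and -0.32 on chip 1, and 0.06 and 0.34 on chip 2. In the epithalamus array the pretectum sum was 9733 and the mean log2 shift 1.82, above the thalamus arrays of chip 1. The single epithalamus array thus also carried signal of pretectum and prethalamus genes, and its bearing on the cadherin levels there was not tested. None of the 6 endothelium and 3 blood genes tested passed. The part of these markers in the cadherin differences was not tested.

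Outside the 10 members, 1 of 13 other cadherins listed was tested, Cdh5 (VE-cadherin of endothelium), at -0.13 (SE 0.23, limma adjusted p = 0.787). Of 16 partners of cadherins listed (catenins, junctional proteins, nectins and proteases that cut cadherins), 11 were tested and none passed in limma, with 3 at an unadjusted p under 0.05, a threshold met by 20.9% of all genes. Of the 11, 3 had a positive difference, and the median was -0.20 against -0.02 for all genes. The smallest p belonged to Ctnnd2 (delta-catenin, a neural partner of the cadherin tail), which read 6.47, 7.07, 10.12 and 9.82 in WT and 6.10, 5.86, 9.26 and 9.40 in KO. Each KO array lay below the WT arrays of its chip. The difference was -0.72 (SE 0.18, limma adjusted p = 0.0666), and a second Ctnnd2 probe stood at -1.41. Ctnna2 (alpha-N-catenin, the neural link from cadherins to actin) stood at -0.58 on its brightest probe (SE 0.18, limma adjusted p = 0.115). Its other tested probes stood at -0.24 and 0.37, so they differed in sign. Probes of Ctnnb1 (beta-catenin) did not give the same answer either. The brightest stood at -0.20 (SE 0.17, limma adjusted p = 0.542), and a dimmer one, singled out after its value was seen, at 1.11 (SE 0.21, limma adjusted p = 0.0279 over all probes).

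The genes whose levels over 10 arrays (8 thalamus arrays, epithalamus and prethalamus, each minus the WT thalamus mean of its chip) were most like those of Cdh4 were Prepl (Pearson r = 0.948), Cadps (0.944), a priming factor of secretory vesicles, and Cacnb4 (0.943), a calcium channel subunit. Cadps also passed the test of KO against WT, at -1.06 (SE 0.16, limma adjusted p = 0.0145). For Cdh6 they were Rftn1 (0.959), a protein of lipid rafts, Mmadhc (0.959), of cobalamin metabolism, and Supt5 (0.958), a transcription elongation factor, of which Rftn1 passed at 1.61 (SE 0.33, limma adjusted p = 0.0373). These correlations describe 10 points that share genotype and chip, and were the highest of all genes tested with clone names left out.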

How the data were processed

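RNA of microdissected tissue was labelled with biotin and hybridised to bead arrays, per the labels' protocols. The deposited unnormalized tables hold a bead intensity per probe, made with GenomeStudio 1.1.1 on chip 2 per the file headers; the submitters' processing notes also name BeadStudio and lumi. The deposited detection columns hold a fraction between 0 and 1, headed as detection on chip 1 and as a detection p-value on chip 2 per the file headers. Bright probes lie near 1 on both chips, and 1 minus the fraction was used as detection p. The deposited normalized tables hold log2 values with a normalization method not given in the sources used here, and served as an alternative. Chip 1 rows were found in the joined table through their signals and chip 2 rows by probe, which matched 31448 probes and left out 11.

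From the intensities, each chip was processed with neqc of limma 3.58.1 (R 4.3.3; normexp background from detection p, offset 16, quantile normalization, log2). Genes were represented by their brightest probe, detected on at least 4 of 8 arrays, and tested with lmFit and eBayes, two-sided, with the chip as a block and Benjamini-Hochberg adjustment over all 10395 genes. Names came from a RefSeq gene table of GRCm38.p6, used for names and gene neighbours only: 19540 probes by accession, 2793 by symbol, 2314 by synonym, and 6812 kept as in the file. Probe sequences were decoded from the probe codes of the joined table, all with a matching checksum. The number of arrays limits the precision, and dim probes have only a bound.

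The members and gene lists were chosen with earlier results of these data known. Named genes were all members, of the partners and other cadherins those that passed the test or else the 2 of lowest p, and for each called member the 3 genes most like it. Alternatives were another background, offset, filter, probe rule, normalization and block, each array left out, each chip alone, and replicate 5 included. On simulated data for KO against WT with 10395 genes, 55 of 100 genes changed 2-fold and 91 of 100 changed 4-fold were recovered, with 8 false calls. The simulated noise was drawn independently for each gene, so these counts take in no variation that genes share across an array. No pair of arrays within a group held identical values; the highest correlation was 0.9908.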

Additional observations from a re-analysis of the deposited data

Results flagged for a closer look

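Groups of 4 arrays were searched for 1 array far from the other 3. The mean of each chip over WT and KO was taken off first. Of 24 groups of cadherin probes, 2 were marked. The cutoff marks about 1 in 20 groups of independent values. These groups share chip means and genes, so that rate need not hold for them. On the first Cdh8 probe, WT replicate 1 stood 0.05 above the mean of chip 1, apart from the other 3 WT arrays, which lay below the means of their chips. On Cdh10, KO replicate 3 stood at -0.91 against the mean of chip 2, the lowest of the KO arrays. Without that array Cdh10 stood at -0.42 (limma adjusted p = 0.265), in place of -0.66.

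The excluded KO replicate 5 carried a signal of Cdh6 outside the comparison, 1.5 higher than the higher of WT replicates 3 and 4 on chip 2.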

How the results depend on the processing

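Of the 7 cadherins tested, 2 passed; with each array left out in turn this count ranged from 0 to 2, and the number of all genes that passed, 298, from 63 to 612. Cadherins at an unadjusted limma p under 0.05 numbered 4 of 7, against 20.9% of all genes, and between 2 and 4 with an array left out. With replicate 5 of each genotype included, 15 genes and 1 cadherin (Cdh6) passed. With no chip term 0 genes and 0 cadherins passed (74 and 0 at an unadjusted p under 0.05), and on chip 1 alone 0 and 0 (1012 and 2). On chip 2 alone 45 genes and 0 cadherins passed (3 unadjusted), with no background correction 153 and 0 (4 unadjusted), and with no detection filter 84 and 0 of 10 (4 unadjusted). The deposited normalized values gave 591 genes of 9524 and 2 cadherins. Cadherins that passed numbered 1 with an offset of 50 (Cdh4), 1 with detection on all 8 arrays (Cdh4, which leaves out Cdh6 by its construction), 1 with the mean of all probes of a gene (Cdh6), and 1 with probes under the members' own symbols only (Cdh6), an alternative chosen after seeing the data, in which Cdh4 stood at -0.99 (limma adjusted p = 0.117). Cdh4, Cdh6, Cdh8 and Cdh10 kept their sign in every alternative run, Cdh4 from -1.33 to -0.55 and Cdh6 from 0.61 to 1.37. With an array left out Cdh2 ranged from -0.07 (without WT replicate 2) to 0.34. Signs turned there, and for Cdh7 (-0.09) and Cdh13 (0.09) with replicate 5 included. For the prethalamus, the count of 1 cadherin went to 0 with no background correction, where Cdh8 stood at 1.04 from the WT mean. The cause of these changes was not tested.

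Deviations of same-numbered arrays correlated at -0.11 on chip 1 and 0.12 on chip 2. With 2 arrays of each genotype per chip, each value rests on a single contrast, so it cannot show whether same-numbered arrays were paired. With the replicate number as a block, 363 genes and 2 cadherins passed, Cdh4 at -1.15 (limma adjusted p = 0.0229) and Cdh6 at 1.09 (limma adjusted p = 0.0294). Dim signal limits Cdh6, Cdh7 and Cdh10 on chip 1 and kept Cdh9, Cdh11 and Cdh20 out of the fit of both chips; 2 Cdh11 probes were tested on chip 2 alone, at 0.15 (limma adjusted p = 0.883) and 0.52 (limma adjusted p = 0.512).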
